A study of Mus musculus with 6 samples.

Results

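The hippocampus of *Glud1* Tg and wt mice was examined for 9 genes that mark GABAergic interneurons, namely *Gad1*, *Gad2*, *Slc32a1*, *Pvalb*, *Calb2*, *Lhx6*, *Dlx1*, *Reln* and *Erbb4*. Every probeset annotated to one of these gene symbols and to no other gene was taken, which gave 16 of the 45101 probesets on the array. The rule names genes and uses no signal, although the genes were chosen as markers with earlier results of these data known. Tg mice carried an extra *Glud1*, the gene of the glutamate-producing enzyme glutamate dehydrogenase, under the neuron-specific enolase (*Nse*) promoter, which is active in neurons, so that interneurons as well as glutamatergic neurons may carry it. Both genotypes were male, 9 months old and on a C57BL/6 background, and the wt mice carried no transgene. RNA of whole hippocampus from 3 Tg and 3 wt mice was hybridized to 1 Affymetrix mouse genome array each, and the signal of a probeset is its MAS5 value on a linear scale.

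GABAergic interneurons are the inhibitory minority of hippocampal neurons. They make GABA from glutamate with the glutamate decarboxylases encoded by *Gad1* and *Gad2* and load it into synaptic vesicles with the transporter encoded by *Slc32a1*. Their subclasses are told apart by calcium-binding proteins, neuropeptides and the transcription factors of their embryonic origin, and they differ in the part of a principal cell that they inhibit.

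Of the 16 probesets, 11 probesets of 8 genes were bright enough to be tested, and 10 of these 11 had a lower mean in Tg than in wt hippocampus, as did 46.8% of all probesets tested. The lowest values relative to wt were those of *Reln*, the secreted glycoprotein reelin of interneurons and Cajal-Retzius cells, with a log2 difference of -0.49 ± 0.11 (SE, n = 3 and 3), of *Gad2* with -0.47 ± 0.16 and of *Slc32a1* with -0.36 ± 0.14. The value of *Pvalb*, the parvalbumin of fast-spiking basket cells, was -0.12 ± 0.10, and the difference between genes was not tested. None of the 11 probesets passed limma at an adjusted p under 0.05, and neither did any of the 31076 probesets tested, which is 0% of them. At an unadjusted p under 0.05, 3 of the 11 were lower and none was higher, whereas 9.69% of all tested probesets passed that level, 3.78% lower and 5.91% higher (1174 and 1837 probesets). With each array centred on its median, 2162 were lower and 1226 higher, and the same count of 3 of the 11 was lower.

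The proximal promoters of the 3 genes with the lowest values relative to wt are shown beside that of *Pvalb*, the gene nearest to no difference. Each is the 250 bases before the annotated transcript start in RefSeq (GRCm38.p6), written 5′ to 3′ on the strand of the gene, with each CpG dinucleotide in capitals. The windows are *Reln* at chr5:22344706-22344955 on the minus strand, *Gad2* at chr2:22622077-22622326 on the plus strand, *Slc32a1* at chr2:158610508-158610757 on the plus strand, and the first of the 2 *Pvalb* entries at chr15:78206401-78206650 on the minus strand.
*Reln*: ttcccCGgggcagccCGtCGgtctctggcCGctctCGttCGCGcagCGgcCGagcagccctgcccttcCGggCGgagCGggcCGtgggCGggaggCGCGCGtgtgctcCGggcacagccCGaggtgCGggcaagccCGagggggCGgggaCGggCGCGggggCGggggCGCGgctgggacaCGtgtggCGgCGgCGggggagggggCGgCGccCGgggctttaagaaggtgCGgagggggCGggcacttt
*Gad2*: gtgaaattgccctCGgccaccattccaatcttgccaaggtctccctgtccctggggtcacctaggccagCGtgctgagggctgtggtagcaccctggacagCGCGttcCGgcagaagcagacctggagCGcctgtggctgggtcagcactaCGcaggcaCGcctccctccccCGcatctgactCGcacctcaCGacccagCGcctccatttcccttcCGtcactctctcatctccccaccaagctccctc
*Slc32a1*: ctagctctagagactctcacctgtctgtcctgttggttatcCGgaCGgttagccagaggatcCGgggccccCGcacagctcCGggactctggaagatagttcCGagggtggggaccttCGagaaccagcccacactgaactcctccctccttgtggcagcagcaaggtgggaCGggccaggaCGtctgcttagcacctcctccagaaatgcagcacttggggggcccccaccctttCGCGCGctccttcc
*Pvalb*: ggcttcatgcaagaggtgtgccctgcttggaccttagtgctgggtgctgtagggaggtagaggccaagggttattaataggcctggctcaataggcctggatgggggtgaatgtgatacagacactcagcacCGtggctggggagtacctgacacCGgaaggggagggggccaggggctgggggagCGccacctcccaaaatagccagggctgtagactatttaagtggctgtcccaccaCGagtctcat
The *Reln* window was 80.0% G and C and held 37 CpG, whereas that of *Pvalb* was 58.4% G and C and held 4. The windows of *Gad2* and *Slc32a1* lay between them, with 13 and 12 CpG. The second *Pvalb* entry, which is not printed, was 71.6% G and C and held 23 CpG, above *Gad2* and *Slc32a1* in both measures. Over the 32851 promoter windows of the same length in the table, the median was 52.4% G and C with 6 CpG. The GC-box letters GGGCGG, read on both strands, were found 6 times in the *Reln* window and in none of the other windows printed. Over all windows, 32.7% held them at least once. Among windows not printed, that of *Gad1* held 17 CpG and the letters 1 time, and that of *Dlx1* held 22 CpG without the letters. Entries 1 and 2 of *Lhx6* held the letters 1 time each. These are features of the reference sequence, and the arrays measured no binding or methylation there. Of the 9 genes, 8 had an entry in the promoter table, and *Calb2* had none.

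The synthesis and loading of GABA is the part of the program that all interneurons share. *Gad2* encodes the decarboxylase of nerve terminals, and its brightest probeset (1429589_at) gave signals of 1239.7, 1682.4 and 1485.3 in Tg and 2540.7, 1971.5 and 1653.8 in wt. Tg 1 was lowest and wt 1 highest, and the groups overlapped, since Tg 2 lay above wt 3. The mean of wt was 1.38-fold that of Tg, with a log2 difference of -0.47 (95% interval from -0.81 to -0.13, limma unadjusted p = 0.0109, adjusted p = 0.350). The second *Gad2* probeset (1421978_at) ran the other way, with signals of 411.3, 357.8 and 406.6 in Tg and 485.9, 244.8 and 363.3 in wt. Its wt signals enclosed all 3 Tg signals, and its log2 difference was 0.15 ± 0.22. Across the 6 arrays the 2 probesets of *Gad2* had a correlation of 0.015 (Pearson r, as a description), so they did not report the same pattern from array to array.

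*Slc32a1* encodes the vesicular GABA transporter that marks inhibitory terminals. Its only tested probeset (1422756_at) gave 696.7, 851.9 and 833.5 in Tg and 989.9, 1167.7 and 909.8 in wt, so that every Tg array was below every wt array. The mean of wt was 1.28-fold that of Tg, with a log2 difference of -0.36 (95% interval from -0.65 to -0.06, limma unadjusted p = 0.0222, adjusted p = 0.427). The other 3 probesets of *Slc32a1* had signals from 4.1 to 43.8 on all arrays and were too dim to be tested. *Slc32a1* and *Reln* were the 2 of 11 probesets without overlap, both lower in Tg, whereas 15.3% of all tested probesets had no overlap, 6.67% lower and 8.58% higher.

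*Gad1* encodes the decarboxylase that supplies most basal GABA. Its brightest probeset (1416561_at) gave 8651.7, 9027.8 and 9893.4 in Tg and 8268.9, 12117.1 and 10194.2 in wt. The lowest signal of all was that of wt 1, and the 3 Tg arrays fell between wt 1 and wt 3. The log2 difference was -0.13 ± 0.12 (95% interval from -0.39 to 0.12, adjusted p = 0.745), and it was -0.00075 without wt 2 and -0.28 without wt 1 (unadjusted p = 0.0151, adjusted p = 0.321). The second *Gad1* probeset (1416562_at) gave 2091.2, 3063.6 and 3374.4 in Tg and 3079.6, 3177.9 and 3172.8 in wt. The wt arrays were close together here and Tg 1 alone was far below them, so the log2 difference was -0.17 ± 0.15, and 0.033 without Tg 1. The intervals of *Gad1* and *Gad2* overlapped, and whether the 2 enzymes differed from each other in their response was not tested.

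**Figure D1:**
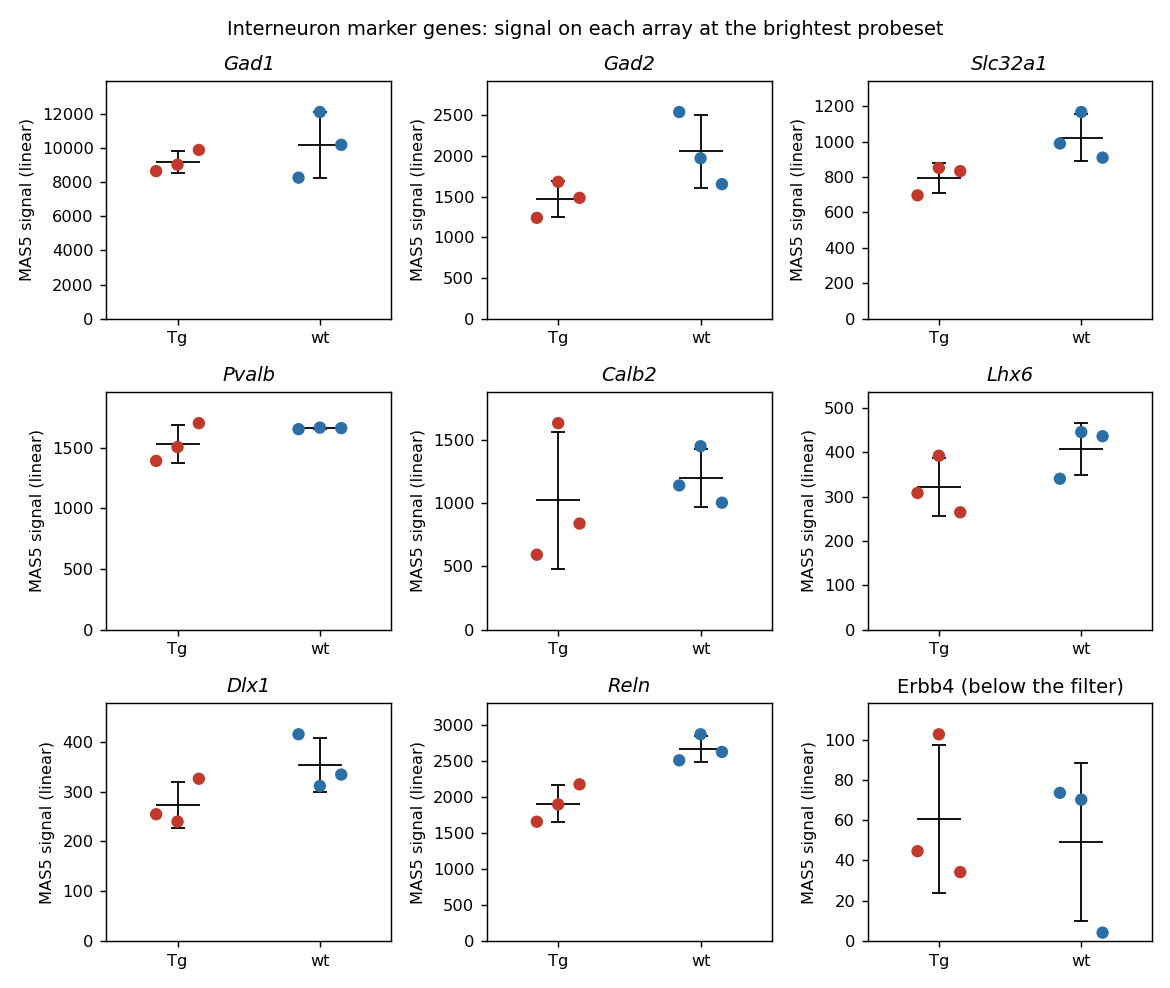
MAS5 signal (linear scale, y axis from 0) of the brightest probeset of each interneuron marker gene, with 1 point per array in the order 1, 2, 3 for 3 Tg and 3 wt mice, and the mean ± SD of each group as bars. *Slc32a1* and *Reln* are the panels in which every Tg point is below every wt point, and *Erbb4* is shown although it was too dim to be tested.

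*Reln* is made by interneurons of several hippocampal layers and by Cajal-Retzius cells, and in the adult its product acts on synapses through lipoprotein receptors. Its tested probeset (1449465_at) gave 1659.6, 1899.8 and 2179.4 in Tg and 2514.6, 2876.9 and 2631.4 in wt. All Tg arrays were below all wt arrays, with Tg 1 the lowest and wt 2 the highest. The mean signal was 1913 ± 260 (SD, n = 3) in Tg and 2674 ± 185 in wt, which is 1.40-fold higher in wt. The log2 difference was -0.49 (95% interval from -0.73 to -0.24, limma unadjusted p = 9.68e-04, adjusted p = 0.227). The study had *Reln* in its list of changed genes, which was chosen on these same samples, so its direction here is not independent evidence. The second *Reln* probeset (1458020_at) had signals from 5.0 to 63.6 and was too dim to be tested. Markers of Cajal-Retzius cells were at the edge of measurement, since 2 of 6 passed the filter. *Trp73*, the p73 transcription factor of these cells, gave 117.0, 133.4 and 63.1 in Tg and 198.6, 62.7 and 112.0 in wt, with full overlap. *Ebf3*, the other measured marker, gave 61.5, 166.2 and 88.1 in Tg and 121.6, 36.9 and 105.2 in wt, also with overlap. The log2 difference was -0.15 ± 0.41 for *Trp73* and 0.25 ± 0.46 for *Ebf3*. The share of Cajal-Retzius cells in the *Reln* difference was not tested. In extracts of whole tissue, fewer cells of a type and less RNA in each of them cannot be told apart.

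The calcium-binding proteins parvalbumin and calretinin mark largely separate interneuron subclasses. *Pvalb* (1417653_at) gave 1392.0, 1506.4 and 1703.2 in Tg and 1653.8, 1666.4 and 1662.1 in wt. The wt arrays lay within a narrow band and Tg 3 lay above it. Its log2 difference was -0.12 (95% interval from -0.35 to 0.11, adjusted p = 0.745), an interval that still holds values of the size seen for *Lhx6* or *Calb2*. It was -0.05 without Tg 1 and -0.20 without Tg 3. *Calb2* (1451129_at), the calretinin of interneurons that contact other interneurons and, in mouse, also of mossy cells of the dentate hilus, gave 592.6, 1630.8 and 838.5 in Tg and 1139.3, 1448.8 and 1003.0 in wt. Tg 1 and Tg 3 were below every wt array, while Tg 2 was above them all. The log2 difference was -0.34 ± 0.28 (adjusted p = 0.729) with all arrays, -0.73 without Tg 2 (unadjusted p = 0.00265, adjusted p = 0.276) and -0.016 without Tg 1. Tg 2 was also the highest array for the choroid plexus markers, whose mean log2 level there was 1.63 above the mean of all arrays. It was the highest of the Tg arrays for *Zic1*, a transcription factor used here as a thalamic marker. *Zic1* gave 706.5, 1596.5 and 827.5 in Tg and 2196.7, 1819.4 and 1170.5 in wt. Among the Tg arrays, *Tcf7l2*, another thalamic marker, was also highest in Tg 2, whereas *Prkcd* and *Lef1* were highest in Tg 3. The log2 difference was -0.76 for *Zic1*, and 0.02, 0.02 and 0.10 for *Tcf7l2*, *Prkcd* and *Lef1*. Of the mossy cell markers 3 of 5 were measured, and their average log2 level is given relative to the mean of all arrays. It was 0.08, -0.16 and -0.25 in Tg and -0.13, 0.28 and 0.18 in wt. The 3 genes did not run the same way. *Drd2*, which was dim, had a log2 difference of -1.06 without overlap (limma unadjusted p = 0.0166). The differences of *Nmb* and the dim *Calcrl* were -0.22 and 0.62, with overlap. The part of these cells and tissues in the *Calb2* signal was not tested.

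*Lhx6* is the transcription factor of interneurons from the medial ganglionic eminence, which become parvalbumin and somatostatin cells. Its brighter probeset (1425094_a_at) gave 307.9, 391.8 and 264.4 in Tg and 340.0, 445.1 and 435.7 in wt. Tg 2 was above wt 1, and the log2 difference was -0.33 ± 0.19 (adjusted p = 0.613), or -0.21 without Tg 3. The dimmer probeset (1422262_a_at) gave 79.4, 56.8 and 112.8 in Tg and 81.1, 86.0 and 142.2 in wt, with overlap. Its log2 difference was -0.27 ± 0.37, and -0.05 without wt 3. The 2 probesets of *Lhx6* had a correlation of -0.006 across the 6 arrays (Pearson r, as a description), so they did not report the same pattern. *Dlx1*, a homeobox factor needed for the migration and survival of forebrain interneurons, gave 254.7, 239.9 and 326.0 in Tg and 415.4, 311.5 and 334.4 in wt (1449470_at). Tg 3 lay above wt 2, so the groups overlapped, and the log2 difference was -0.35 ± 0.20 (adjusted p = 0.595).

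*Erbb4* encodes the neuregulin receptor of hippocampal interneurons, and its only probeset (1427783_at) gave 44.6, 102.7 and 34.2 in Tg and 73.6, 70.2 and 4.1 in wt. These signals scatter over both groups with no order. Its mean, taken on the log2 scale and turned back to a signal, was 45.9, just under the lowest level that was tested (47.8). *Erbb4* was therefore left out of the main comparison. Fitted without the filter, it had a log2 difference of 0.41 (limma unadjusted p = 0.532).

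**Figure D2:**
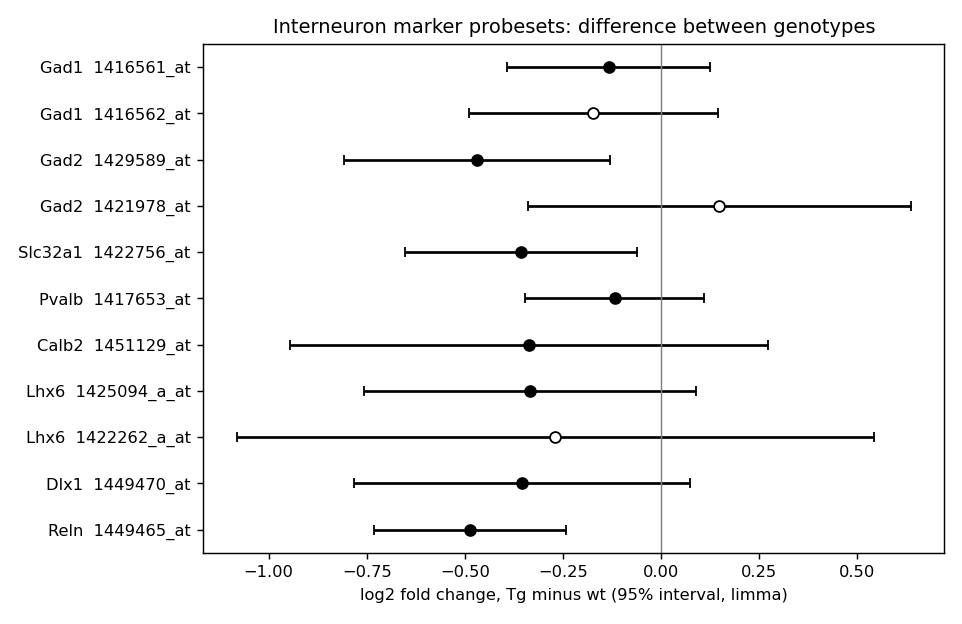
Log2 difference of Tg minus wt (x axis) with its 95% limma interval for the 11 tested probesets of the interneuron marker genes, filled for the brightest probeset of a gene and open for the other. The intervals of *Gad2* 1429589_at, *Slc32a1* and *Reln* lie below 0, and *Gad2* 1421978_at alone has a value above 0.

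Read at the brightest probeset of each gene, all 8 measured marker genes had a lower mean in Tg, while 56% of the 13854 genes on the array did. Their median log2 difference was -0.35, beside -0.03 over all genes. The 8 genes were not independent of each other. Relative to its mean over all arrays, the average of the 8 genes was -0.36, -0.01 and -0.11 in Tg 1, 2 and 3 and 0.14, 0.26 and 0.08 in wt 1, 2 and 3, on the log2 scale. Tg 1 was the lowest array for *Gad2*, *Slc32a1*, *Pvalb*, *Calb2* and *Reln*, and wt 2 was the highest for *Gad1*, *Slc32a1*, *Lhx6* and *Reln*. *Slc32a1* and *Reln* had the highest correlation of any pair over the 6 arrays (Pearson r = 0.910), followed by *Pvalb* with *Reln* (0.851) and *Gad2* with *Slc32a1* (0.788), whereas *Gad1* and *Gad2* had a correlation of 0.012. These values include the difference between genotypes and are given as a description. The mean array pattern of *Gad1*, *Gad2* and *Slc32a1* was matched most closely by *Wbp4* (r = 0.990), *Zwint* (0.987), *Fam161a* (0.982), *Cyp46a1* (0.981) and *Foxo1* (0.980), of 13846 genes compared over 6 arrays.

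Genes with other roles in the same cells were read from lists. Of 65 such genes, 57 were measured, of which 41 had a lower and 16 a higher mean in Tg. None was called by limma, and at an unadjusted p under 0.05, 10 were lower and 1 was higher, where 7.81% of all genes passed that level, 4.95% lower and 2.86% higher. Groups without overlap were seen for 8 lower and 2 higher genes, where 8.8% and 5.19% of all genes were so. The study's own list, chosen on these samples, held 5 of the 11 genes at an unadjusted p under 0.05. By Cyber-T, which called 65 of all probesets (0.209%), *Satb1* (adjusted p = 0.0277) and *Sst* (adjusted p = 0.0494) were called in these lists, and no probeset of the 9 marker genes was.

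Among transcription factors of interneurons, 6 of 8 measured genes were lower and 2 higher, with a median log2 difference of -0.29 that was -0.18 without Tg 2. *Satb1*, which acts in the maturation of somatostatin and parvalbumin cells and is also found in cortical glutamatergic neurons, gave 1229.8, 1372.6 and 1461.3 in Tg and 1949.1, 2096.3 and 2195.3 in wt. The groups were well apart, and the log2 difference of -0.61 ± 0.10 (adjusted p = 0.174 by limma) was larger in size than that of any of the 8 measured marker genes. *Sox6*, a factor downstream of *Lhx6* that was named after its values were seen, had a log2 difference of -0.38 (unadjusted p = 0.0415, no overlap).

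Of the 10 interneuron peptides, 6 were lower and 4 higher, with a median of -0.16. Without wt 2 the split was 5 and 5 with a median of -0.01, and without Tg 1 the median was -0.06. *Sst*, the somatostatin of dendrite-targeting interneurons, gave 3267.6, 4260.0 and 3574.5 in Tg and 4817.6, 5397.0 and 5165.3 in wt, with no overlap and a log2 difference of -0.48 ± 0.10 (limma adjusted p = 0.212). *Vip*, the peptide of interneurons that inhibit other interneurons, gave 1004.1, 1058.4 and 1237.9 in Tg and 1363.3, 1373.1 and 1481.5 in wt, again without overlap, with -0.35 ± 0.11 (adjusted p = 0.338). *Cck*, which marks a class of basket cells and is also made by pyramidal cells, gave 0.19 ± 0.12 with overlapping groups.

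Among channels, receptors and other subclass markers, 18 of 20 measured genes were lower and 2 higher, with a median of -0.20. With 1 array left out the median ran from -0.30 (wt 1) to -0.15 (Tg 2). Without wt 2, 16 were lower and 4 higher. *Btbd11*, a gene enriched in interneurons, gave 504.4, 748.3 and 723.3 in Tg and 974.6, 963.6 and 880.2 in wt, a difference of -0.52 ± 0.16 without overlap (adjusted p = 0.299). *Cnr1*, the cannabinoid receptor of *Cck* basket cells, was the brightest of the list and differed by -0.11 ± 0.11. *Syt2* and *Cox6a2*, a synaptotagmin and a respiratory chain subunit of parvalbumin cells that were named after their values were seen, had log2 differences of -0.72 and -0.54, with overlap in both (unadjusted p = 0.0301 and 0.0356). Potassium channel genes of the same cells in that list gave -0.22 ± 0.12 for *Kcnc1*, -0.16 ± 0.13 for *Kcnc2* and 0.01 ± 0.38 for the dim *Kcns3*.

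Genes of GABA uptake and breakdown had a median of -0.06, with 3 of 4 lower, or 2 of 4 under quantile normalization and without Tg 1 or wt 3. *Abat*, the transaminase that breaks GABA down in neurons and glia, gave -0.11 ± 0.09, and *Slc6a13*, a GABA transporter of meninges and other barrier tissue, gave 237.0, 33.8 and 422.6 in Tg and 149.9, 613.8 and 660.8 in wt. For *Slc6a13*, wt 2 and wt 3 were above every Tg array and wt 1 was below Tg 1 and Tg 3, and the log2 difference of -1.23 ± 0.69 (adjusted p = 0.601) was the lowest of all related genes. Reelin receptors and signalling genes had a median of -0.07, with 5 of 7 lower, or 4 of 7 under quantile normalization, and with 1 array left out the median ran from -0.07 (Tg 1) to -0.01 (wt 2). The receptors themselves gave 0.21 ± 0.15 for *Lrp8*, which was -0.04 with wt 3 as the lone wt array, and -0.01 ± 0.11 for *Vldlr*. In that list *Fyn*, the kinase that phosphorylates the reelin adaptor Dab1, was the gene with the smallest p (-0.19 ± 0.09, no overlap, unadjusted p = 0.0494), and *Pafah1b1*, the brightest, gave -0.07 ± 0.10. Neuregulins and ErbB receptors had a median of 0.13, with 5 of 8 higher, or 4 of 8 under quantile normalization and median centring. Without wt 3 the median was -0.01, and without wt 1 it was 0.29. *Egfr*, a relative of *Erbb4* found mainly in glia and progenitors, gave 368.5, 356.6 and 326.4 in Tg and 196.0, 267.2 and 212.6 in wt, so every Tg array was above every wt array (0.61 ± 0.19, adjusted p = 0.327). *Erbb2ip*, a scaffold protein of ErbB2 and the brightest of the list, gave -0.20 ± 0.14.

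**Figure D3:**
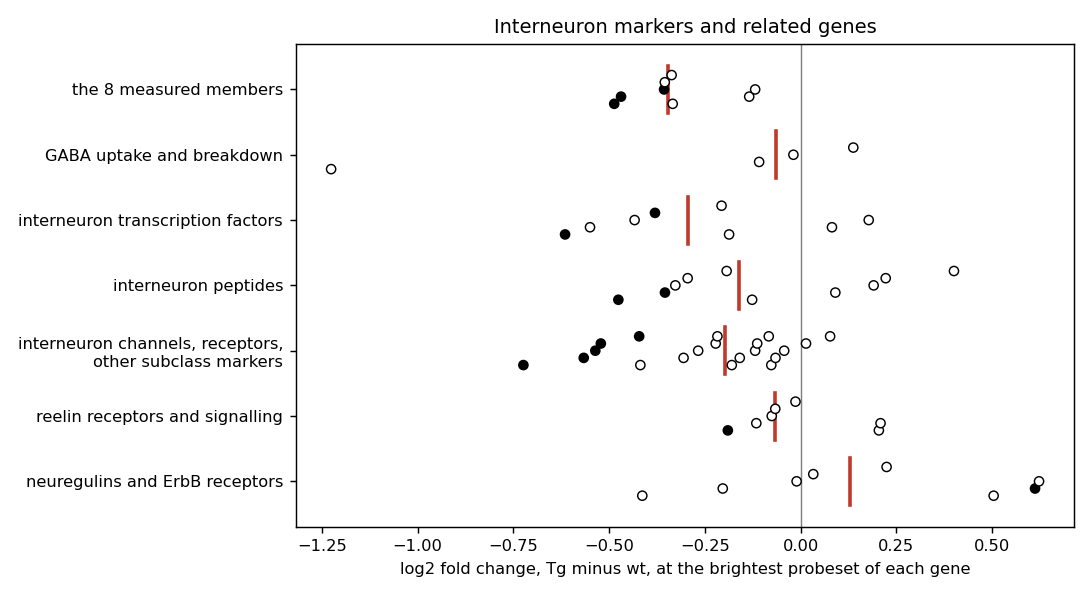
Log2 difference of Tg minus wt (x axis) at the brightest probeset of each gene, with 1 point per gene in rows by role, filled where the unadjusted limma p was under 0.05, and the median of each row as a vertical bar. All 8 measured marker genes lie below 0, with a median of -0.35, while the neuregulin and ErbB row has a median of 0.13.

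Markers of other cells in or beside the hippocampus were read in the same way. Of 59 measured genes none was called by limma, and at an unadjusted p under 0.05, 8 were higher and 10 lower in Tg, beside the 2.86% and 4.95% of all genes given above. All 7 markers of dentate granule cells and all 7 of CA pyramidal cells, the principal cells of the labelled tissue, were bright enough to be tested. The granule cell markers had a higher mean in Tg in 7 of 7 genes and the CA markers in 5 of 7 (6 and 4 with median centring), where 44.0% of all genes had a higher mean. The study's list, chosen on these samples, held 5 of the 7 granule cell markers and 4 of the 8 measured retrohippocampal and neocortical markers, so their directions are not independent evidence. The average level of the granule cell markers, relative to all arrays, was 0.23, 0.29 and 0.27 in Tg and -0.39, -0.47 and 0.06 in wt, with no overlap. Their median log2 difference was 0.67, and 0.11 with wt 3 as the lone wt array. In the opposite direction, 7 of 8 markers of retrohippocampal and neocortical neurons had a lower mean in Tg, with average levels of -0.32, -0.14 and -0.28 in Tg and 0.24, 0.19 and 0.30 in wt. *Nr4a2*, the brightest of that list, gave -0.09 ± 0.10 with overlapping groups. *Tshz2*, a transcription factor of retrohippocampal cortex with the smallest p of the list, gave 394.0, 495.3 and 551.3 in Tg and 1126.0, 947.4 and 1044.1 in wt, without overlap. *Rorb*, a neocortical marker, was the 1 gene of the list with a higher mean in Tg, with 1059.6, 962.7 and 1261.2 in Tg and 951.4, 623.8 and 891.2 in wt, again without overlap (0.42 ± 0.17, unadjusted p = 0.0262). The averages of the 8 interneuron markers and of the cortical markers were lower on the Tg arrays, and that of the granule cell markers was higher there. Any lists that differ by genotype share arrays in this way. Among Tg arrays, the interneuron and cortical averages were lowest in Tg 1 and highest in Tg 2. Among wt arrays, wt 2 was the highest for the interneuron markers (0.26) and the lowest for the cortical markers (0.19). Cortex beside the hippocampus holds interneurons of the same classes, and the part of the dissected tissue in the differences of *Reln*, *Slc32a1*, *Gad2*, *Sst* and *Satb1* was not tested. Of 7 genes of all neurons, 5 were lower and 2 higher with a median of -0.08 (3 higher under quantile normalization, and from -0.13 without Tg 3 to -0.02 without Tg 2), and their average level was between -0.14 and 0.09 on every array, with overlapping groups. Of the striatal markers 5 of 7 were measured, with a median of -0.28 that ran from -0.61 (without wt 2) to 0.03 (without wt 3) when 1 array was left out. *Pde10a*, the brightest of them, was higher in Tg without overlap (0.54 ± 0.15, unadjusted p = 0.00389), and *Drd1a*, with the smallest p, was lower without overlap (-1.47 ± 0.36, unadjusted p = 0.00156). Astrocyte markers (5 of 5) had a median of -0.15, with 4 lower and 1 higher. Of them, 3 were lower without overlap, where 8.8% of all genes were so. At an unadjusted limma p under 0.05 there was 1, beside 4 with median centring and 0 under quantile normalization. Those of oligodendrocytes and their precursors (5 of 6) had a median of -0.07, which ran from -0.24 (without Tg 2) to 0.10 (without Tg 3). Thalamic markers (4 of 6) had a median of 0.02, which was -0.03 under quantile normalization and ran from -0.09 (without wt 3) to 0.06 (without Tg 1). Choroid plexus markers (6 of 6) had a median of -0.81, which was 0.22 without Tg 3 and -1.93 without Tg 2.

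**Figure D4:**
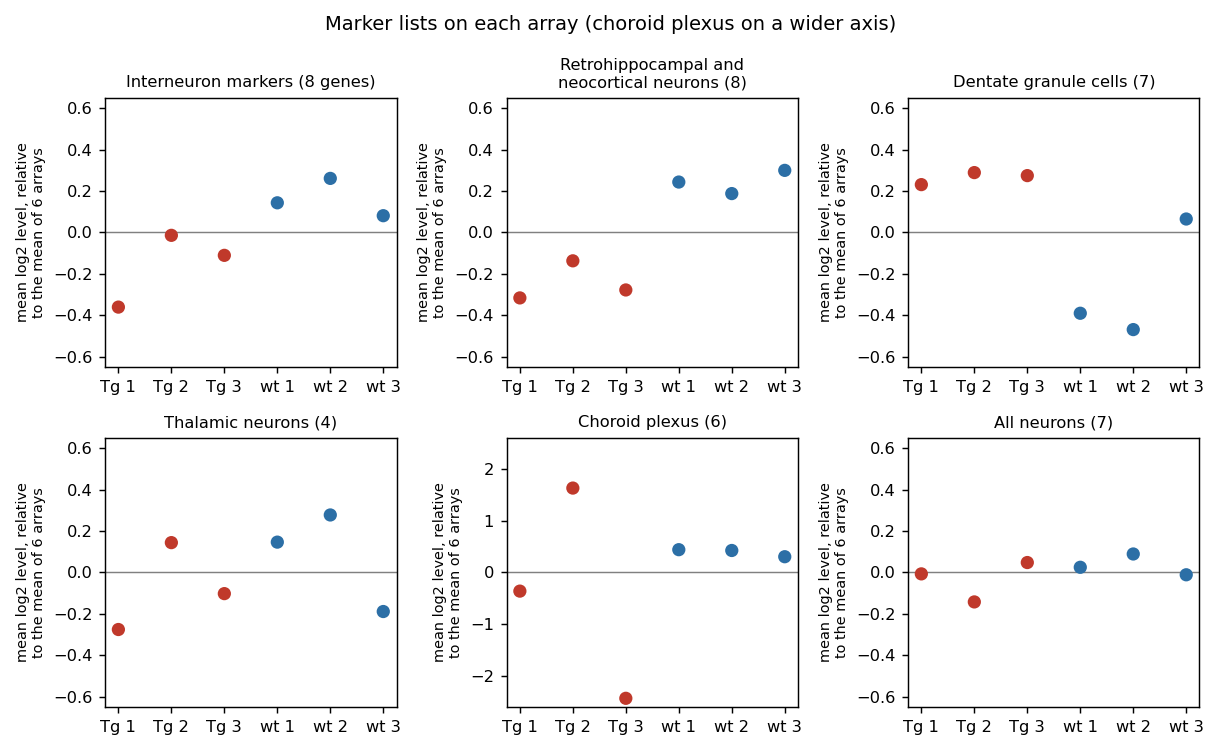
Mean log2 level of each marker list on each array (y axis, relative to the mean of all 6 arrays), with Tg arrays in red and wt arrays in blue and the number of genes beside each name. The mean of the 8 interneuron markers and that of the retrohippocampal and neocortical list are lower on all Tg arrays than on any wt array, the granule cell list is higher on them, and the choroid plexus list, on a wider axis, ranges from -2.43 in Tg 3 to 1.63 in Tg 2.

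Some arrays stood apart for other reasons. The signal of the 18S ribosomal RNA control was 13960 in wt 1 and 10375 in wt 2, and from 975.5 to 3312.8 on the other 4 arrays, wt 3 included. With wt 3 as the lone wt array, assumed to vary as the Tg arrays do, the log2 difference was -0.47 for *Reln* (unadjusted p = 0.0203), but -0.20 for *Slc32a1* and -0.18 for *Gad2*. The difference of *Gad2* was -0.61 without wt 3 and -0.31 without wt 1, and that of *Reln* ran from -0.58 to -0.39 when any single array was left out. The 3′ over 5′ ratio of *Actb*, a measure of RNA integrity, was 1.64 to 1.69 on Tg arrays and 1.70 to 1.95 on wt arrays. That of *Gapdh* was 0.78 to 0.80 on Tg arrays and 0.75 to 0.91 on wt arrays, so the groups overlapped. The part of RNA integrity in these differences was not tested. The 2 *Glud1* probesets differed by -0.09 and -0.15 on the log2 scale and were thus no higher in Tg. Whether they detect the transgene is not known, so they do not check the genotype labels.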

How the data were processed

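The authors deposited 1 linear intensity per probeset and array, computed with MAS5 and scaled to a common trimmed mean of 500.0. The RMA values behind the study's lists were not analysed here. After 16 was added, log2 values were formed, a step that compresses differences of dim probesets. Left out were 64 control probesets and, among the remainder, the 31% with the lowest mean log2 level over 6 arrays, so that 31076 were kept. Genotypes were compared in limma 3.58.1 (R 4.3.3) by group means and eBayes with an intensity trend. Benjamini-Hochberg adjustment covered every probeset tested, and a call needed an adjusted p under 0.05. The procedure was tested on simulated data. Cyber-T (window of 101 probesets, confidence of 10) was an alternative.

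Gene names came from the platform annotation, where 34945 probesets had 1 gene, 932 several and 9160 none. A gene was read at its brightest kept probeset, giving 13854 genes. The marker genes and the 17 lists of related genes and other cells were chosen with earlier results of these data known. In each list of related genes the text names the gene with the smallest p, the brightest gene and called genes, as well as *Vip*. Other genes of these lists, and *Rorb*, *Tcf7l2*, *Prkcd*, *Lef1* and *Calcrl*, were named after their values were seen. Of lists of other cells, genes chosen by the same rule are named for the retrohippocampal, striatal, thalamic, mossy cell and Cajal-Retzius lists. The labels number 3 samples per genotype and the methods name as many mice, and p values rest on 3 arrays per group, a number that limits the precision. Figures were drawn with matplotlib 3.10.9.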

Additional observations from a re-analysis of the deposited data

How the results depend on the processing

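All 8 marker genes with a tested probeset kept a lower mean in Tg with another added constant (1 or 64), quantile normalization, median centring, array weights, each array left out, wt 3 as the lone wt array, and the mean of all kept probesets of a gene. The other alternatives (no filter, the brightest 50% of probesets, Cyber-T, no trend in limma and the replicate block) cannot alter these differences and bear on p alone. The difference of *Reln* ranged from -0.58 to -0.39 on the log2 scale, and that of *Gad1* from -0.28 to -0.00075. The adjusted p of *Reln* was 0.0874 by Cyber-T and 0.506 by limma without the intensity trend. For *Gad2* the range was from -0.61 without wt 3 to -0.16 for the mean of its kept probesets. The second probesets of *Gad1* and *Gad2* changed sign when 1 array was left out, the former to 0.033 without Tg 1 and the latter to -0.10 without wt 2.

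Of the 11 marker probesets, 1 in place of 3 was at an unadjusted p under 0.05 without the intensity trend and with wt 3 as the lone wt array, and from 1 (without Tg 1) to 5 (without Tg 2) when an array was left out. None was called under any alternative. Over all probesets, Cyber-T called 65 and the replicate block 1, and leaving out an array called from 0 to 6 (without Tg 2). In the lists of related genes, Cyber-T called 2, and the count at an unadjusted p under 0.05 was 11, ranged from 6 (without wt 2) to 17 (without wt 1), and was 6 with wt 3 as the lone wt array. In the lists of other cell types, Cyber-T called 3, leaving out an array called from 0 to 1, and the count at an unadjusted p under 0.05 fell from 18 to 9 both without the trend and with wt 3 as the lone wt array, where that over all probesets was 1830 in place of 3011. The causes were not tested.

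Arrays with the same replicate number did not deviate together (correlations of -0.0159, 0.00779 and 0.0333). The labels do not say whether the numbers pair the mice, and low correlations cannot exclude a pairing. With the replicate block, the count of marker probesets at an unadjusted p under 0.05 was 3. With 3 arrays per group, the 95% intervals of *Reln*, *Gad2* and *Slc32a1* left out 0 among the 8 genes at their brightest probesets, and those of the other 5 did not.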
